A study of Mus musculus with 10 samples.

Results

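The miR-15/16 family is a group of small regulatory RNAs that hold down genes of the cell division cycle. It was followed here through 8 rows of the normalised miRNA table of the mouse RPE/choroid/sclera, the pigment epithelium, vascular choroid and fibrous sclera behind the neural retina. The rows were taken by name: mmu-miR-15a-5p, mmu-miR-15b-5p, mmu-miR-16-5p, mmu-miR-16-2-3p, mmu-miR-195a-5p, mmu-miR-497a-5p, mmu-miR-322-5p and mmu-miR-503-5p. All 8 were found among the 1340 miRNAs of the table, and 7 had a mean signal of at least 10, the level needed to enter the tests. The libraries came from 5 right and 5 left eyes of C57BL/6J mice, wild type and at postnatal day 34, under the numbers 61, 64, 65, 66 and 68, each number shared by a right and a left library. In each mouse 1 eye had worn a goggle with a -20 dioptre lens for 10 days from postnatal day 24, which drives eye growth toward myopia, and its fellow eye wore none. Eye side is labelled, but which eye of a mouse was goggled is not, so right eyes were set against left eyes. If the lens sat on the right in some mice and on the left in others, its effect would partly cancel in this contrast.

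A miRNA is cut from a hairpin precursor, whose left and right strands give the 5p and the 3p arm. It finds target mRNAs mainly through its seed, bases 2 to 8. The miR-15/16 seed is known for targeting cyclins of the D and E types, Cdk6, Chek1, Wee1 and the survival gene Bcl2, and a high level of the family slows passage from G1 into S phase. In humans the miR-15a and miR-16-1 locus is lost in many chronic lymphocytic leukaemias, and in mice miR-195a contributes to the postnatal exit of heart muscle cells from the cell cycle. The RPE is a postmitotic layer, while the sclera and choroid of a young eye still hold dividing fibroblasts and vessel cells.

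The mature sequences show what ties the members together and where they part. They are given 5′ to 3′ from RefSeq (GRCm38.p6), which held all 8, with the seed in capitals.
miR-16-5p: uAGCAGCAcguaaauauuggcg
miR-195a-5p: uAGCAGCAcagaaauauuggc
miR-15a-5p: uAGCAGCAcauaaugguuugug
miR-15b-5p: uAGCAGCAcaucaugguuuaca
miR-497a-5p: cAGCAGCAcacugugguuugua
miR-322-5p: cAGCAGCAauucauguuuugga
miR-503-5p: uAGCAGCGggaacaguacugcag
miR-16-2-3p: aCCAAUAUuauugugcugcuuu
miR-195b, no member but of the same seed: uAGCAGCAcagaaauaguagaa

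The seed AGCAGCA stood in 6 of the 8 members. miR-503-5p departed from it at the last seed base (A8G against miR-16-5p, counted from 1 at the 5′ end). It was the 1 mature miRNA among the 1679 names of the RefSeq table with that seed, while 10 names carried AGCAGCA. Past the seed the members diverged. Compared base by base with miR-16-5p from base 1 on, miR-195a-5p differed at 2 positions (G10A and U11G), miR-15a-5p at 6 and miR-15b-5p at 8. miR-322-5p and miR-503-5p differed at 10 each and miR-497a-5p at 11. These counts include U1C before the seed in miR-322-5p and miR-497a-5p and the seed base A8G in miR-503-5p. From base 9 on, 5 of 14 bases were identical in miR-322-5p and in miR-503-5p, and 4 of 14 in miR-497a-5p. miR-15a-5p and miR-15b-5p differed from each other at 4 of 22 positions. The number of mismatches allowed in alignment was not given in the sources used here, so reads of miR-16-5p and miR-195a-5p could in part have been exchanged.

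The members come from 4 loci. miR-15a and miR-16-1 lie in an intron of the noncoding transcript Dleu2 on chromosome 14, with miR-15a-5p at chr14:61632075-61632096 on the minus strand. miR-15b and miR-16-2 lie in an intron of Smc4, which encodes a condensin subunit, with miR-15b-5p at chr3:69009775-69009796 and miR-16-2-3p at chr3:69009960-69009981 on the plus strand. miR-497a-5p (chr11:70234730-70234751) and miR-195a-5p (chr11:70235062-70235082) share the plus strand of chromosome 11, and miR-322-5p (chrX:53054306-53054327) and miR-503-5p (chrX:53054027-53054049) the minus strand of the X chromosome. These last 4 lay outside any annotated gene that is not itself a miRNA in GENCODE vM21. The miRNA gene Mir497b overlaps miR-497a-5p on the opposite strand, and the use of strand in counting is likewise not stated there.

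miR-16-5p is made by both of its hairpins. These are printed with both arms in capitals, because the hairpins share the first arm letter for letter, so that of their mature arms only the second tells them apart.
Mir16-1 (chr14:61631880-61631972, minus strand): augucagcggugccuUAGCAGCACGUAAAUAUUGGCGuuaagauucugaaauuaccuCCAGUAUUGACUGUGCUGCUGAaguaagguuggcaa
Mir16-2 (chr3:69009902-69009996, plus strand): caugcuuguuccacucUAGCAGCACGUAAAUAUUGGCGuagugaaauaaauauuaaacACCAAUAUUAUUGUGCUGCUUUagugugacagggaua
The 3p arms of both hold UGCUGCU, the reverse complement of the seed, as do miR-15b-3p and miR-195a-3p. This string was found in 4 of the 8 3p arms of these hairpins and in 5 of the 1679 mature names (0.298%). The table gives 1 value for miR-16-5p, so the share of each locus in it was not measured. The level of miR-16-2-3p belongs to the Smc4 locus and that of miR-16-1-3p to the Dleu2 locus.

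As a tissue check, all markers of the pigment epithelium, retina, red cell, leukocyte, striated muscle, fibroblast and smooth muscle, endothelium and surface epithelium lists were above 0 in all 10 libraries. The pigment epithelium list, led by miR-204-5p, summed to 1959 to 1989 k in right and 1969 to 1989 k in left eyes, with k for 1000 units of signal. The fibroblast and smooth muscle list summed to 844.5 to 1023 k in right and 851 to 1074 k in left eyes. Retina miRNAs were also present, at 189 to 1330 k in right and 263 to 473 k in left eyes, and right eye 68 stood apart with that highest sum. Endothelium miRNAs summed to 198 to 342 k in right and 201 to 267 k in left eyes, and striated muscle miRNAs to 42.4 to 78.6 k in right and 25.9 to 104 k in left eyes. The sums of the red cell list were 51.6 to 112 k in right and 70.4 to 111 k in left eyes, and those of the leukocyte list 19.5 to 24.0 k in right and 18.8 to 23.6 k in left eyes. The depth of each library is unknown, because the table holds values scaled by the authors. The values are also graded in steps: an abundant miRNA takes nearly the same value in each library in which it holds the same rank. In bulk tissue, fewer cells of a type and less RNA per cell cannot be told apart.

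The members spanned more than 4 orders of magnitude, and miR-16-5p alone made up most of the family. It averaged 73105 ± 2254 (SD, n = 10) and accounted for 82.1 to 84.6% of the summed signal of the 8 members in each library. The 8 together held 0.715 to 0.795% of all miRNA signal. The next was miR-497a-5p at 4880 ± 181, followed by miR-322-5p at 3932 ± 416, miR-195a-5p at 2613 ± 300 and miR-15a-5p at 2244 ± 325. miR-15b-5p stood lower at 807 ± 57.6. The arm miR-16-2-3p stood at 28.0 ± 7.65, and miR-503-5p was last at 4.48 ± 3.91. Neighbours in this order were apart in all 10 libraries with 1 exception: the ranges of miR-195a-5p and miR-15a-5p overlapped, and miR-195a-5p was the higher in 7 of 10. The seed relative miR-195b was listed at 0 in 7 libraries and reached 2.25 in the highest. miR-6342, miR-6353 and miR-6419, which also carry the seed in RefSeq, were not among the 1340 miRNAs, which held 7 of the 10 names with the seed.

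Right against left eyes, 0 of 7 members reached an adjusted p under 0.05 in limma, a linear model fitted to all 588 miRNAs kept with the number as a block. The share over all 588 was 0%, and at an unadjusted p under 0.05 in limma it was 13 miRNAs or 2.21%, against 1 member, miR-16-2-3p. Of the 7 members 5 had a higher and 2 a lower mean log2 signal in right eyes, and the median of their log2 fold changes was 0.03, beside 0.02 over the 588. Fold changes are on the scale of log2(signal + 1), which understates those of low miRNAs. In every member the values of right and left eyes overlapped.

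The abundant miR-16-5p took only 3 values. In right eyes it was 71843 in numbers 61, 64 and 65 and 73146 in numbers 66 and 68, and in left eyes it was 71843 in 61 and 64, 73146 in 65 and 66 and 79250 in 68. These are the values of ranks 28, 27 and 26 among all miRNAs. Both eyes of a number were tied in 3 of 5 numbers, and left eye 68 was the single library above the rest. The log2 fold change was -0.03 (95% interval -0.16 to 0.10, adjusted p = 0.967 in limma), an interval that rests on these 3 values.

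The Dleu2 and Smc4 partners miR-15a-5p and miR-15b-5p were read separately. In right eyes of numbers 61, 64, 65, 66 and 68 miR-15a-5p had 1811, 2028, 2537, 2373 and 2675, against 1811, 2188, 2608, 1982 and 2428 in left eyes. Right eyes were higher in 2 numbers and lower in 2, with a tie in 61, and the log2 fold change was 0.05 with a standard error of 0.08. For miR-15b-5p the right eyes had 886, 740, 841, 716 and 841, against 786, 814, 886, 771 and 786 in left eyes, a log2 fold change of -0.01 with a standard error of 0.09. The values of miR-15b-5p thus stayed within 716 to 886 over all libraries, a narrower span than that of miR-15a-5p.

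**Figure D1:**
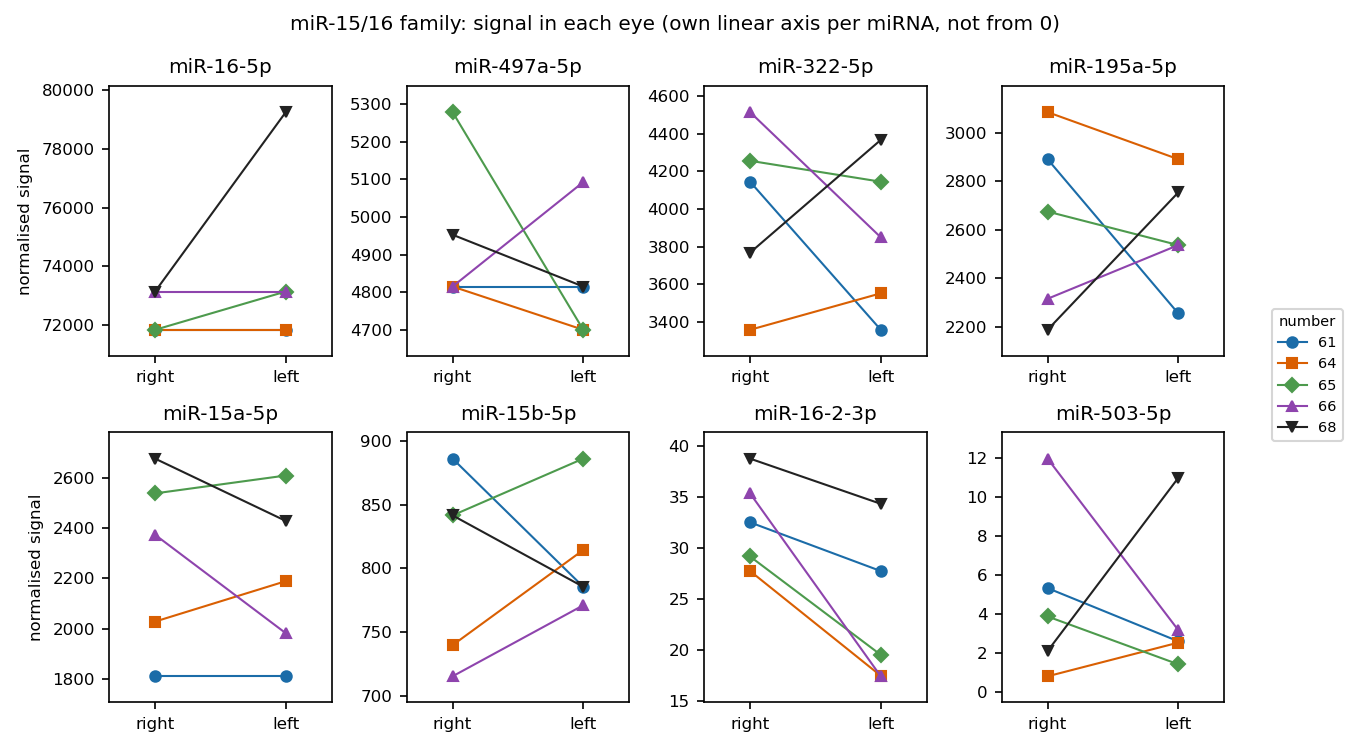
Normalised signal of each member in right and left eyes (y axis, a linear scale of its own for each miRNA that does not start at 0); each line joins the right and left eye of a number. Only for miR-16-2-3p does the right eye lie above the left in all 5 numbers, and for miR-16-5p left eye 68 stands alone at 79250.

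The Smc4-derived arm miR-16-2-3p was the member with the largest difference. It had 32.5, 27.8, 29.2, 35.4 and 38.8 in right eyes of numbers 61, 64, 65, 66 and 68, against 27.8, 17.5, 19.6, 17.4 and 34.4 in left eyes. Every right eye was above its own left eye, although left eye 68 was above the right eyes of 61, 64 and 65. Right eyes averaged 32.7 ± 4.50 and left eyes 23.3 ± 7.49 (SD, n = 5 each). The log2 fold change was 0.51 (95% interval 0.06 to 0.96). This was the seventh smallest p of the 588 (an unadjusted p of 0.0312 in limma, adjusted p = 0.967), so it did not pass. A higher value in all 5 right eyes was found in 12 of the 588 miRNAs (2.04%). Without number 68, whose right eye stood apart in retina miRNAs, the log2 fold change was 0.60 (an unadjusted p of 0.0285 in limma, adjusted p = 0.839), and the unadjusted p reached 0.108 when number 66 was left out instead. Against miR-16-5p, the arm opposite to it, the log2 ratio of miR-16-2-3p to miR-16-5p averaged -11.1 ± 0.179 in right and -11.6 ± 0.383 in left eyes. That ratio was higher in 5 of 5 right eyes (exact two-sided sign-flip permutation p = 0.0625, the smallest that 5 pairs allow, and 0.375 adjusted over the 6 ratios tested). In no number was miR-16-5p higher in the right eye, so the ratio restates the direction of miR-16-2-3p and is not separate from it. The sister arm miR-16-1-3p of the Dleu2 locus had 7.50 to 18.2 in right and 10.6 to 20.4 in left eyes, a log2 fold change of -0.08 (95% interval -0.74 to 0.59). The surface epithelium list, 9 of 9 members kept and none at 0, was lower in 4 of the 5 right eyes, at 32.9 to 214 k in right and 72.5 to 254 k in left eyes. Its correlation with miR-16-2-3p was -0.72 over the 10 libraries after subtraction of each side's mean, so it describes libraries within a side. Of the 8 lists this was the furthest from 0. Leukocytes stood at 0.62, striated muscle at 0.49, fibroblast and smooth muscle at 0.43 and endothelium at 0.39. The pigment epithelium list stood at -0.35, retina at 0.09 and red cells at 0.01. The part of any list in the difference between sides was not tested.

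On chromosome 11 the partners miR-497a-5p and miR-195a-5p kept near levels. miR-497a-5p had 4816, 4816, 5278, 4816 and 4953 in right eyes of numbers 61, 64, 65, 66 and 68, against 4816, 4701, 4701, 5093 and 4816 in left eyes, with right eye 65 the highest. Its log2 fold change was 0.03 (95% interval -0.13 to 0.20). miR-195a-5p had 2891, 3085, 2675, 2316 and 2188 in right eyes, against 2256, 2891, 2537, 2537 and 2754 in left eyes, a log2 fold change of 0.01 (95% interval -0.25 to 0.27). Right eyes were higher in numbers 61, 64 and 65 and lower in 66 and 68. The signal of miR-497a-5p was 1.56 to 2.26 times that of miR-195a-5p in right and 1.63 to 2.13 times in left eyes, and the log2 ratio did not differ between sides by the test (exact permutation p = 0.750).

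On the X chromosome miR-322-5p, known in mouse muscle precursors for promoting exit from the cell cycle together with miR-503, was the third most abundant member. It had 4145, 3359, 4256, 4514 and 3768 in right eyes of numbers 61, 64, 65, 66 and 68, against 3359, 3553, 4145, 3850 and 4367 in left eyes. Right eyes were higher in 3 of 5 numbers, and the log2 fold change was 0.06 (95% interval -0.17 to 0.28). miR-503-5p was low throughout, with 5.34, 0.803, 3.88, 11.99 and 2.10 in right eyes, against 2.60, 2.53, 1.42, 3.18 and 11.0 in left eyes. Right eye 66 and left eye 68 were high and the other libraries were at 5.34 or below. It was not part of the tests, and without the filter on low signal its log2 fold change was 0.11 with a 95% interval of -1.19 to 1.41.

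Among the 7 members tested, the 95% intervals of 6 lay within a 1.5-fold difference in either direction, and that of miR-16-2-3p, from 1.04-fold to 1.95-fold, lay within 2-fold. Over all miRNAs kept, 57.8% of the 588 intervals lay within 1.5-fold and 84.5% within 2-fold. The graded values bear on these widths: over the 10 libraries miR-16-5p took only 3 distinct values and miR-497a-5p only 5. How far this narrows the intervals of abundant members was not tested. The remaining ratios between members were also compared. The signal of miR-15b-5p was 0.302 to 0.489 of that of miR-15a-5p in right and 0.324 to 0.434 in left eyes (exact permutation p = 0.562 for the log2 ratio). For miR-322-5p to miR-16-5p the exact permutation p was 0.438, for miR-195a-5p to miR-16-5p it was 0.750, and for miR-503-5p to miR-322-5p it was 0.938.

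**Figure D2:**
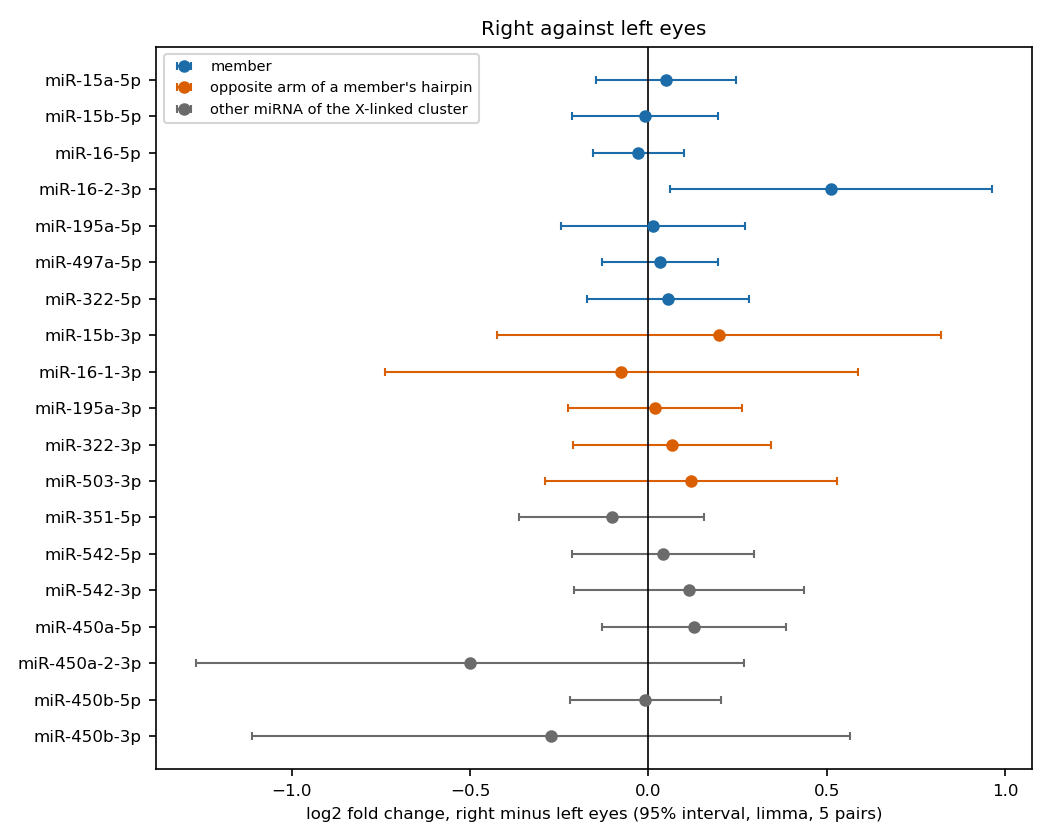
Log2 fold change of right minus left eyes (x axis) with its 95% interval from limma over 5 pairs, for the 7 members tested, the 5 opposite arms tested and the 7 other X-linked miRNAs tested. The interval of miR-16-2-3p, 0.06 to 0.96, is the only one drawn that does not reach 0, and its adjusted p was 0.967.

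Which arm of each hairpin was kept differed greatly within the family. For miR-16 the 5p arm had 3586 to 9581 times the signal of miR-16-1-3p and 1885 to 4192 times that of miR-16-2-3p, ranges over the 10 libraries. The value of miR-16-5p pools both hairpins, so for either hairpin alone these ratios are upper limits. The 5p arm exceeded the 3p arm by 472 to 6001 times for miR-497a and by 143 to 2819 times for miR-15a, with low 3p signals in both. The excess was smaller for miR-15b, at 11.5 to 40.1 times, and for miR-195a, at 8.97 to 13.7 times. For miR-322 the arms were close, at 1.19 to 2.60 times, and miR-322-3p averaged 2207 ± 522 (SD, n = 10), about the level of miR-15a-5p.

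miR-503 was the 1 hairpin of the family in which the 3p arm led. Its signal was 213, 159, 190, 246 and 146 in right eyes of numbers 61, 64, 65, 66 and 68, and 176, 185, 195.4, 139 and 173 in left eyes. This was 15.7 to 198 times the signal of miR-503-5p, with a median of 58.2 times. The arm that carries the family-like seed was thus the minor one in every library.
miR-503-3p: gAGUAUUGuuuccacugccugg
Such a lead of the 3p arm is common: of 288 hairpins with same-named arms and at least 1 arm kept, the 3p arm was the higher in all 10 libraries in 120 (41.7%). miR-503 ranked 64th of the 288 by the ratio of mean 3p to mean 5p signal.

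Between sides, 0 of the 191 pairs of arms kept passed an adjusted p of 0.05 in limma for the log2 ratio of 5p to 3p (0%), and 5 had an unadjusted p under 0.05 (2.62%). Of the 5 arm pairs of the family that could be fitted, miR-16-5p to miR-16-2-3p had a difference of -0.54 (95% interval -0.92 to -0.16, an unadjusted p of 0.0120 in limma, adjusted p = 0.749), the second smallest p of the 191. It shares its values with the member result above and is not separate from it. The others were -0.21 for miR-15b, 0.05 for miR-16-5p to miR-16-1-3p, -0.01 for miR-195a and -0.01 for miR-322, with intervals that reached 0 on both sides. Among the 3p arms below the filter, miR-497a-3p had 3.40, 0.803, 5.85, 4.75 and 5.95 in right eyes, against 8.38, 5.20, 9.97, 7.15 and 8.91 in left eyes. It was lower in all 5 right eyes, while the groups still overlapped, and without the filter its log2 fold change was -0.91 (an unadjusted p of 0.0447 in limma, adjusted p = 0.986 over 1340). Among the 588 kept, to which miR-497a-3p does not belong, 5 were lower in all 5 right eyes. The share over all 1340 is not given here. For miR-15b-3p the right eyes had 26.2, 48.7, 59.1, 62.1 and 57.0, against 40.0, 20.3, 43.1, 61.5 and 61.01 in left eyes. Right eyes were higher in 3 of 5, with a log2 fold change of 0.20 (95% interval -0.42 to 0.82).

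**Figure D3:**
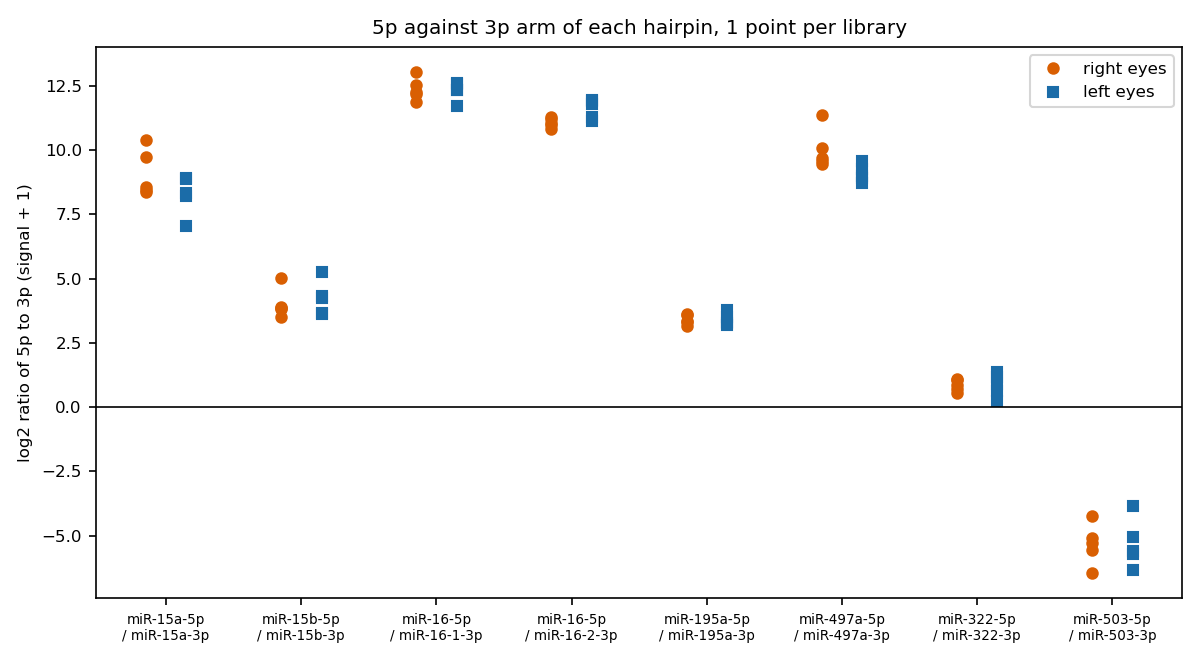
Log2 of 5p over 3p signal (y axis, signal + 1) for the 8 arm pairs of the family, 1 point per library, right eyes as circles and left eyes as squares. All points lie above 0 except those of miR-503, which run from -6.47 to -3.85.

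Whether the members differ between the numbers was asked from the same model, with both eyes of a number as the repeat. In limma's F test 7 of the 588 miRNAs passed an adjusted p of 0.05 (1.19%), and 0 of the 7 members did. The count was 0 when number 61, 64 or 68 was left out, 1 without 65 and 22 without 66. At an unadjusted p under 0.05 in limma there were 137 of 588 (23.3%) and 1 of 7 members. That member was miR-15a-5p (an unadjusted p of 0.0296 in limma, adjusted p = 0.183), whose unadjusted p ran from 0.0156 without 66 to 0.164 without 61. Its mean over both eyes was 1811 in number 61, 2108 in 64, 2573 in 65, 2177 in 66 and 2551 in 68. The means spanned 762, against a largest gap of 391 between the eyes of a number, which was in 66. For miR-322-5p the means ran from 3456 in number 64 to 4200 in 65, a span of 744 that is smaller than the gap of 786 between the eyes of 61. The means of miR-195a-5p ran from 2427 in number 66 to 2988 in 64, also less apart than the 635 between the eyes of 61. The spans of miR-16-2-3p, miR-16-5p and miR-497a-5p were likewise smaller than the largest gap within a number, and that of miR-15b-5p was 120 beside a gap of 100.2.

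**Figure D4:**
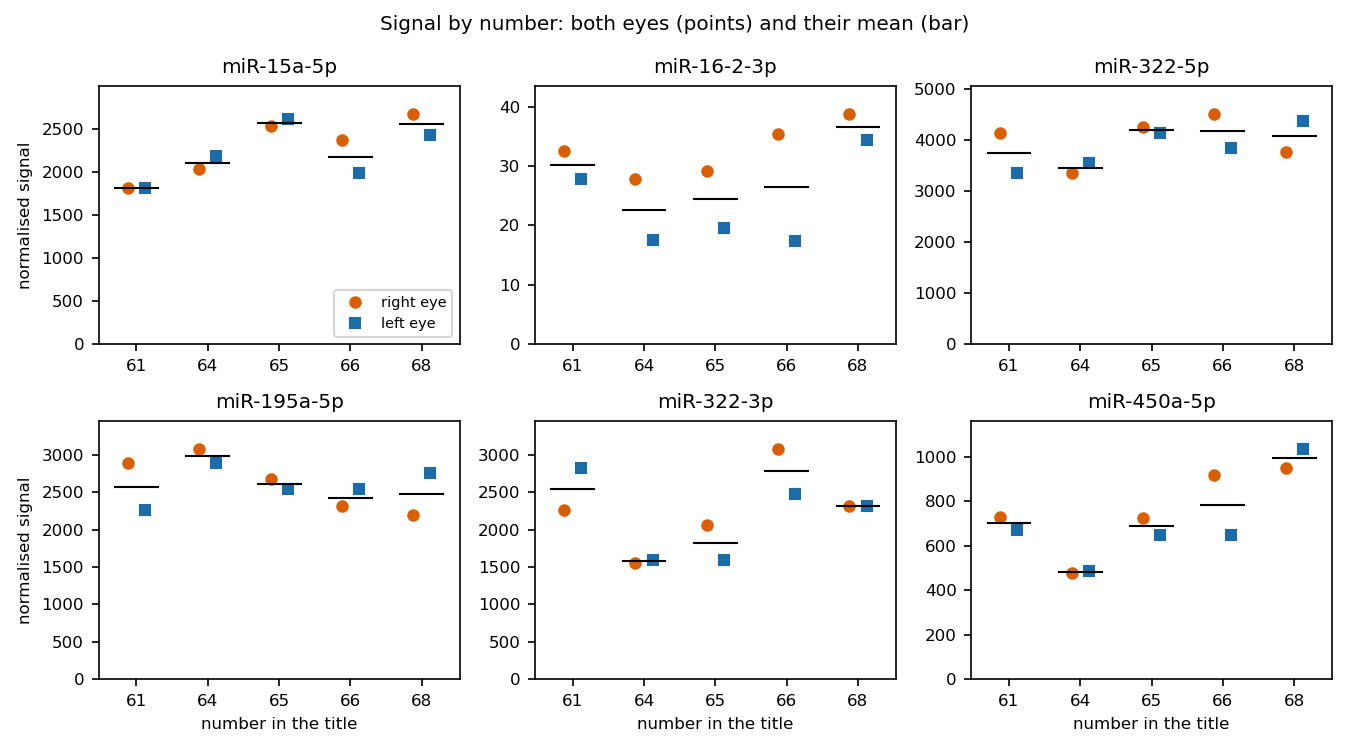
Normalised signal (y axis, from 0) by number, with right eyes as circles, left eyes as squares and bars for the mean of both. In miR-15a-5p both eyes of number 61 sit at 1811, and in miR-450a-5p both eyes of 64 lie at 486 or below and the mean of 68 is 994.

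The X-linked transcript that holds miR-322 and miR-503 also yields miR-351, miR-542, miR-450a and miR-450b, which do not carry the seed. The most abundant of them was miR-351-5p, at 17912 ± 2216 in right and 19380 ± 3501 in left eyes (SD, n = 5 each), above miR-322-5p in all libraries. miR-450a-5p had 731, 479, 724, 919 and 950 in right eyes of numbers 61, 64, 65, 66 and 68, against 669, 486, 649, 649 and 1037 in left eyes. miR-542-3p averaged 630 ± 122 in right and 579 ± 104 in left eyes, and miR-450b-5p 278 ± 47.5 in right and 280.1 ± 48.2 in left eyes. Of the 7 kept, 3 were higher and 4 lower in right eyes and 0 passed in limma. Their log2 fold changes had a median of -0.01. Between numbers, miR-450a-5p came nearest (an unadjusted p of 0.00616 in limma, adjusted p = 0.0941), followed by miR-322-3p (adjusted p = 0.129) and miR-450b-5p (adjusted p = 0.132). Number 64 had the lowest mean in 8 of the 13 miRNAs of this cluster, members and 3p arms included, a count chosen after the values were seen. Among miRNAs with a mean signal of at least 10 this was so for 6 of the 10 in the cluster and for 147 of all 588 (25%), and whether the cluster differs from the rest was not tested. miR-542-5p was an exception, with 569 in number 64 and its lowest mean, 448, in number 68.

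Within loci the members did not share a single pattern over the libraries. Pearson correlations of log2 signal after subtraction of each side's mean are given as descriptions over 10 libraries that share 5 numbers. They were 0.70 for miR-16-5p with miR-16-2-3p, 0.43 for miR-16-5p with miR-15a-5p, -0.17 for miR-16-5p with miR-15b-5p and -0.17 for miR-195a-5p with miR-497a-5p. The first rests in part on left eye 68, which is high in both. On the X chromosome miR-322-5p was at 0.81 with miR-450b-5p, 0.67 with miR-450a-5p, 0.61 with miR-450b-3p and 0.60 with miR-542-3p. It was at 0.53 with miR-503-3p and 0.40 with miR-351-5p, but at 0.30 with its own opposite arm miR-322-3p. Among the miRNAs of this cluster kept, only miR-542-5p (-0.32) and miR-450a-2-3p (-0.34) were negative with it.

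Of the miRNAs outside the family, the ones most like each member were found by the same correlation. For miR-322-5p these were miR-199a-3p (0.95), miR-199b-3p (0.92), both of fibroblasts and smooth muscle, and the cartilage miRNA miR-140-3p (0.92). miR-322-5p also stood at 0.76 with the summed fibroblast and smooth muscle list, which contains miR-199a-3p, and at 0.82 with the endothelium list. It stood at 0.62 with leukocytes, 0.38 with striated muscle and -0.59 with surface epithelium. Red cells stood at -0.04, pigment epithelium at -0.08 and retina at -0.33. With the fibroblast and smooth muscle list miR-16-5p stood at 0.71, and the other members kept at -0.31 to 0.43. The part of these cell types in its level was not tested. For miR-15a-5p the nearest were miR-30b-5p (0.89), miR-194-5p (0.89) and miR-30d-5p (0.86), and for miR-195a-5p they were miR-378b (0.91), miR-17-5p (0.85) and miR-7068-3p (0.84). For miR-16-5p they were miR-190a-5p (0.89), miR-24-2-5p (0.86) and miR-376a-5p (0.85), and for miR-16-2-3p they were miR-125b-2-3p (0.91), miR-127-5p (0.90) and miR-3473d (0.86). The values were lower for miR-15b-5p, with miR-493-5p (0.80), miR-26b-5p (0.72) and miR-3970 (0.71). For miR-497a-5p they were miR-3083b-5p (0.85), miR-19b-3p (0.71) and miR-181a-2-3p (0.71). Each set is the top of 581 correlations and was selected for its height.

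As a background of other miRNAs tied to the cell cycle, 24 of the let-7, miR-34, miR-17, miR-24, miR-26 and miR-221 groups were all kept. Right against left, 0 of them passed in limma, with 9 higher means, 14 lower, 1 tied and -0.02 as the middle log2 fold change. The most abundant were let-7a-5p, at 901 ± 236 k in right and 982 ± 162 k in left eyes, and miR-26a-5p, at 899 ± 66.2 k on both sides (SD, n = 5 each). Next came let-7c-5p, at 255 ± 139 k in right and 280 ± 118 k in left eyes, and let-7g-5p, at 215 ± 28.6 k in right and 203 ± 28.1 k in left eyes. Between numbers 3 of the 24 passed, let-7b-5p (adjusted p = 0.0430), let-7c-5p (adjusted p = 0.0177) and let-7e-5p (adjusted p = 0.0430) in limma, the first and last of which are named because they passed. The share over all 588 was 1.19%, and 0 of the 7 members passed. None of the 588 passed when number 61, 64 or 68 was left out, so these 3 calls are lost there. Whether the groups differ in this was not tested.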

How the data were processed

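Small RNA libraries (TruSeq Small RNA kit) were made from the RPE/choroid/sclera of 5 right and 5 left eyes, per the labels' protocols, whose extraction text speaks of retinae. The authors deposited a normalised signal per mature miRNA. Bowtie, Partek and GRCm38 (mm10) are named in the submitters' processing notes, with no versions. Library sums lie between 11878152 and 11879036. Only 7.31% of signal values above 0 are whole within 0.001, so reads were not recovered, count models were not used and depth is unknown. With the number as a block, the limma p-values rest on how the right minus left differences vary over these 5 numbers, moderated over all miRNAs. The labels do not state that numbers are animals, so how far the p-values speak for animals is not known.

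Values were analysed as log2(signal + 1) for the 588 miRNAs with a mean signal of at least 10. limma 3.58.1 in R 4.3.3 was fitted with a mean-variance trend, eye side as the tested term and the number as a block, and its two-sided p-values were adjusted by Benjamini-Hochberg over all miRNAs kept (threshold 0.05). It was checked on simulated data with normally distributed noise. These lacked the graded steps of the real values, so the check does not cover the steps. The block follows the protocol, which compares fellow eyes. The pairing comes from the number in the sample titles, which a right and a left library share. After subtraction of the side means, the eyes of a number correlated at 0.12, 0.45, 0.01, -0.13 and 0.28 in the order 61, 64, 65, 66, 68. Ratios between members were tested by exact two-sided sign-flip permutation over 32 sign patterns. Sequences and positions come from RefSeq GRCm38.p6 and host genes from GENCODE vM21. The deposited table's stop lies 1 base past the RefSeq end.

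The named miRNAs are the members, their opposite arms, seed relatives, the X-linked cluster, the 3 most correlated miRNAs per member, marker lists and the 4 most abundant of a cell cycle list. Members and lists were chosen with earlier results of these data known. Alternatives were a pseudocount of 10, no filter, a mean of at least 100, median-centred libraries, no block and leaving out each number.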

Additional observations from a re-analysis of the deposited data

Results flagged for a closer look

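Of 74 groups of 5 eyes checked for the family, its opposite arms, the X-linked miRNAs and their ratios on the log2 scale, 4 held 1 eye far from the other 4. Chance gives about 1 in 20 such groups. For miR-16-5p it was left eye 68, at a signal of 79250, which is rank 26 where the other left eyes held rank 27 or 28. For miR-15b-3p it was right eye 61, at 26.2, below the other right eyes. The same library stood apart in the log2 ratio of miR-15b-5p to miR-15b-3p, at 5.03, which shares that value. For miR-16-1-3p it was left eye 65, at 20.4, above the other left eyes.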

How the results depend on the processing

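No member passed an adjusted p of 0.05 under the alternatives tried. Arm pairs were refitted with a pseudocount of 10, a mean of at least 100, no block and each number left out, and ratios between members likewise except for the mean of at least 100. No arm pair passed in these. No ratio passed either, but in the paired settings the sign-flip test could not reach 0.05. Its smallest possible p was 0.0625 with 5 pairs and larger with a number left out, so those settings say nothing on the ratios. Without the replicate block 0 of 588 miRNAs, 0 members, 0 arm pairs and 0 ratios passed between sides, as with it. There the ratios were tested by exact permutation of the libraries between sides, which can go below 0.0625. A mean signal of at least 100 left 6 members and dropped miR-16-2-3p. The log2 fold change of miR-16-2-3p stayed positive in every alternative that kept it, at 0.38 with a pseudocount of 10 and 0.40 to 0.60 with a number left out, where its unadjusted p in limma ran from 0.0285 without 68 to 0.108 without 66. With no filter on low signal its log2 fold change was 0.51 and its unadjusted p in limma rose to 0.0570. The count of miRNAs that differ between numbers moved from 7 to 23 with a mean signal of at least 100, to 12 with median-centred libraries, and to between 0 and 22 with a number left out. It was 0 without 61, 64 or 68, 1 without 65 and 22 without 66, and the cause was not tested. The member count stayed at 0.

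With a number left out, values near 0 changed direction. The log2 fold changes ran from -0.0024 to 0.0899 for miR-15a-5p, -0.0552 to 0.0226 for miR-15b-5p, -0.0732 to 0.10 for miR-195a-5p, -0.0064 to 0.12 for miR-322-5p and -0.0013 to 0.0606 for miR-497a-5p. The 5p to 3p differences ran from -0.45 to 0.0797 for miR-15b, -0.11 to 0.23 for miR-16 against miR-16-1-3p, -0.0696 to 0.0395 for miR-195a and -0.17 to 0.0698 for miR-322. The ratio differences ran from -0.12 to 0.0174 for miR-15b-5p to miR-15a-5p, -0.0688 to 0.11 for miR-497a-5p to miR-195a-5p, -0.29 to 0.50 for miR-503-5p to miR-322-5p and -0.0378 to 0.11 for miR-195a-5p to miR-16-5p. Right eye 68, rich in retina miRNAs, is left out with number 68. Rank steps limit what can be seen in miR-16-5p and miR-497a-5p, and the unknown depth limits miR-503-5p and the low 3p arms.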
